A study of Mus musculus with 8 samples.

Results

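Nanog and 9 other genes of the pluripotency network were followed in mouse late morulae after siRNA knockdown of Rbbp4, Rbbp7 or both. Rbbp4 and Rbbp7 encode histone-binding proteins, whose levels were not measured here. The members were named as a list (Nanog, Pou5f1, Sox2, Klf4, Klf2, Esrrb, Tfcp2l1, Zfp42, Tdgf1 and Fgf4) and found through their Ensembl identifiers, and all 10 were among the 19058 genes of the deposited table. All 10 passed the filter on low values, a mean abundance of 10 or more, and entered the fit of 12565 genes. The question was which of them followed Nanog, whose level was already known to be higher after Rbbp7 knockdown and lower after the double knockdown. Every embryo was collected 78 h after fertilization, and every embryo had been injected at the zygote stage. Non-specific siRNA was given to the control (NC in the titles), siRNA against Rbbp4 to Rbbp4_KD, siRNA against Rbbp7 to Rbbp7_KD, and siRNA against both to Rbbp4/7_KD, called here the double knockdown. There were 2 libraries of polyadenylated RNA per group. Strain, embryos per library and the separateness of the replicates are not given in the labels, so the spread behind each p-value is that of these libraries alone and may be technical.

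Naive pluripotency is the state of the cells that will form the epiblast, the source of the embryo proper. Its transcription factors (OCT4, encoded by Pou5f1, SOX2, NANOG, ESRRB, TFCP2L1 and the Krüppel-like factors) bind many of the same enhancers and activate each other's genes. At the morula and early blastocyst stages NANOG opposes GATA6: cells that keep NANOG secrete FGF4, and neighbours that receive FGF4 through FGF receptors and ERK kinases lower NANOG and become primitive endoderm. The outer cells become trophectoderm, in which CDX2 and GATA3 act and pluripotency genes are shut off later. RBBP4 and RBBP7 are subunits shared by several chromatin complexes, among them NuRD and PRC2, and both complexes are known to act on pluripotency genes in embryonic stem cells.

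The start of the Nanog gene is shown because Nanog is the gene the other members were compared with. Its promoter also carries a known composite site for OCT4 and SOX2. That of Fgf4 is shown because Fgf4 was the other member whose Rbbp7 knockdown libraries both lay above all the rest. Shorter stretches of the Sox2 and Zfp42 promoters are shown for their POU motif. The sequences are from RefSeq, build GRCm38.p6, read 5′ to 3′ on the gene's own strand. Gene spans given further on are from GENCODE M21, and the RefSeq start used for Fgf4 lies inside its GENCODE span. Capitals mark exact matches, on either strand, to the POU motif ATGCAAA, the SOX motif CATTGT or their composite, which is the SOX motif, any base and the POU motif in a row.
Nanog, chr6:122707239-122707488, plus strand, the 250 bases before the start: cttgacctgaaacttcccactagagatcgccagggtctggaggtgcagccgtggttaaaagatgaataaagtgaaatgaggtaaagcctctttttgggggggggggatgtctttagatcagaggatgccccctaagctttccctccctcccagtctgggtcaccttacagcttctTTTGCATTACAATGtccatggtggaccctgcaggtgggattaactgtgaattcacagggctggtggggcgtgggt
Fgf4, chr7:144861136-144861385, plus strand, the 250 bases before the start: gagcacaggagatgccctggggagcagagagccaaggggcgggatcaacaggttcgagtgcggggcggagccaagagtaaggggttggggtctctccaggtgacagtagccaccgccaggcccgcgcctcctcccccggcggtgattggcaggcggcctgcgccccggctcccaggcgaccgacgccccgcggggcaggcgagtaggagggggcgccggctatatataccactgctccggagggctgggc
Sox2, chr3:34649866-34649932, plus strand: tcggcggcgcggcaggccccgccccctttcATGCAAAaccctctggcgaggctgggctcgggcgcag
Zfp42, chr8:43307158-43307224, minus strand: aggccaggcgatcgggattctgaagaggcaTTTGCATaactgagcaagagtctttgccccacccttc

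All 10 members matched the RefSeq table, with 13 promoter windows because 3 of them have 2 listed starts. The composite was found in 2 of 32851 windows of 250 bases, or 0.00609%, and both were windows of Nanog that hold the same site. In the window printed, it lies 62 to 75 bases before the start, on the strand opposite to the gene. The POU motif was found at Nanog, Sox2 and Zfp42, and in 4.12% of all windows. The SOX motif was found at Nanog and at a downstream start of Pou5f1, and in 10.7% of all windows. A KLF box, CCNCACCC, lay before Esrrb and Zfp42 and in 14.9% of all windows, and an ESRRB motif, AAGGTCA, lay in 4.08% of all windows and in 0 of the 13. A match describes the letters of these windows only.

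Values are the authors' normalized abundance per gene, an abundance scaled between libraries and not a read count. Column totals ran from 11334107 to 12011829. Control replicate 1 stood apart, with zeros for 3937 genes (2644 to 3237 elsewhere) and a mitochondrial share of 6.21% (4.26% to 5.53% elsewhere). The labels held for the targets: Rbbp4 and Rbbp7 fell in every group that received siRNA against them, with 7.44% and 7.80% of the control level for Rbbp4 and 3.79% and 3.80% for Rbbp7 in the single and the double knockdown. Markers of embryo lineages were present, with Nanog, Gata6 and Cdx2 above 1000 in every library. Of 15 cumulus and granulosa markers 6 were in the table, summing to 39.5 to 186 per library, and the 4 sperm and 4 blood markers in the table summed to at most 4.91 and 26.8.

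Nanog, the homeodomain factor that gives the naive state its stability, was set apart in both directions. Its normalized abundance was 6698 and 6322 for the control libraries, 6545 and 6051 for Rbbp4 knockdown, 9093 and 10156 for Rbbp7 knockdown and 4192 and 4692 for double knockdown. Both Rbbp7 knockdown libraries lay above the other 6, both double knockdown libraries lay below the other 6, and the control and Rbbp4 knockdown libraries overlapped. Of the 12565 tested genes, 86, or 0.684%, had both of these features, and Nanog was the 1 member among them. Nanog was singled out with these levels known, so its place among the 86 follows from that choice. The group mean of Nanog (ENSMUSG00000012396, chromosome 6, 122707489 to 122714633, GRCm38) was 148% of the control mean after Rbbp7 knockdown and 68.2% of it after double knockdown.

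The direct comparison of the double with the Rbbp7 knockdown asks what lowering Rbbp4 mRNA as well does to embryos already depleted of Rbbp7 mRNA. It does not use the control libraries except in the shared estimate of the spread. Nanog fell from 9625 ± 752 (SD, n = 2) to 4442 ± 354, a 2.17-fold lower mean, with a log2 difference of −1.12 ± 0.11 (SE of the limma fit; adjusted p = 0.00916). A difference is on the scale of log2(abundance + 1), tests are limma's two-sided tests with Benjamini-Hochberg adjustment over all 12565 genes, and a gene is called at an adjusted p below 0.05. Of all tested genes 45, or 0.358%, were called here, 15 of them lower (0.119%) and 30 higher, or 10 lower and 33 higher under total signal scaling and 10 lower and 5 higher without double knockdown replicate 1. Nanog had the fifth smallest p of all genes. It was the 1 member of 10 called. Since Nanog was singled out with its levels known, this value describes these libraries and is not independent support for the pattern. The call ended without Rbbp7 knockdown replicate 2 (−1.04, adjusted p = 0.107), when only these 4 libraries were fitted (adjusted p = 0.107), and with a variance prior without trend (adjusted p = 0.0773).

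**Figure D1:**
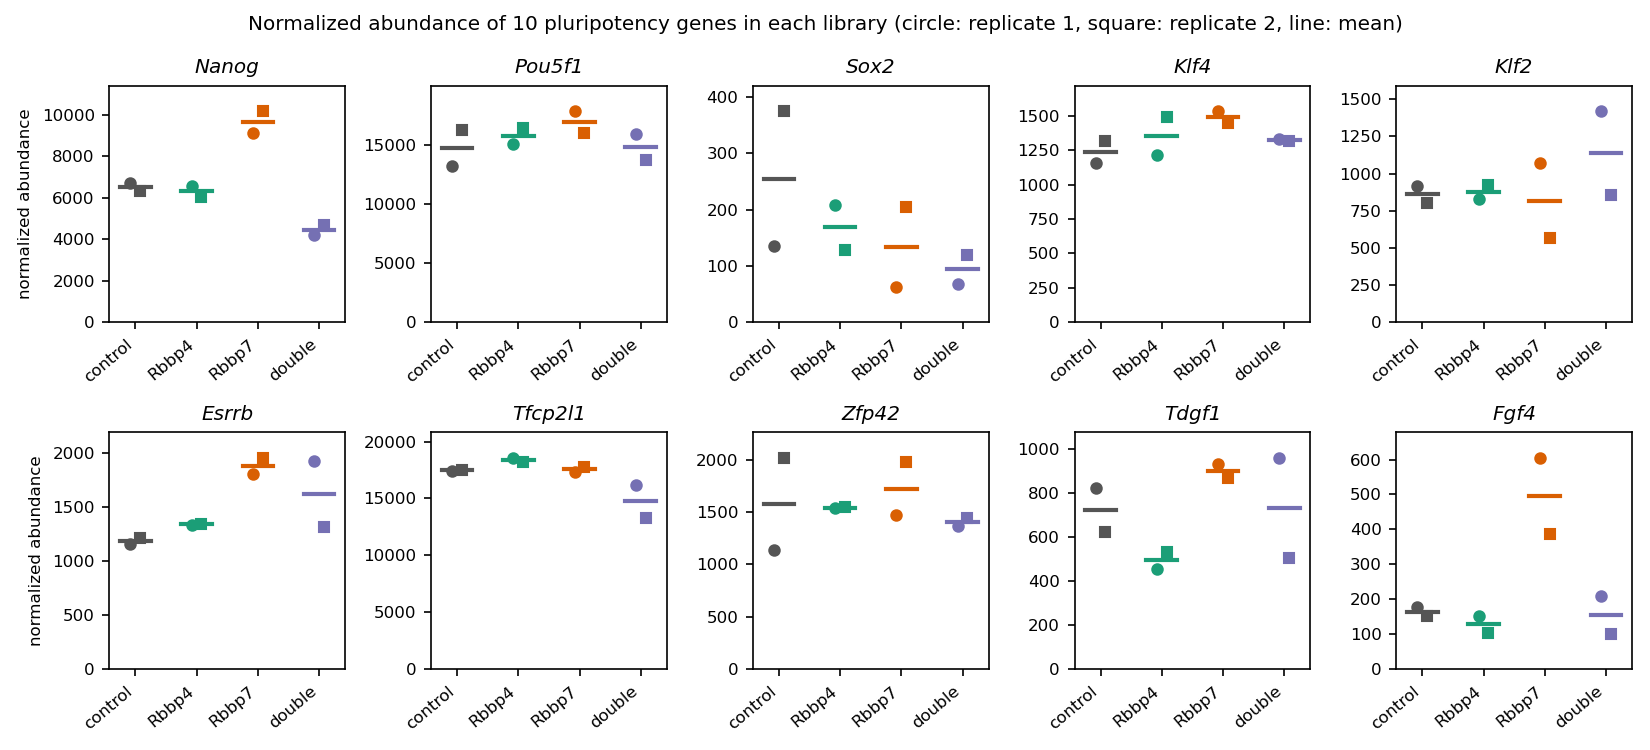
Normalized abundance (y axes, linear, from 0) of the 10 pluripotency genes in the 4 groups (x axes; Rbbp4, Rbbp7 and double are the knockdowns). Circles and squares are replicates 1 and 2 and lines are group means; Nanog runs from 4192 in the double knockdown to 10156 in the Rbbp7 knockdown, while Pou5f1 stays between 13210 and 17835.

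Against the control, neither side of Nanog's pattern passed the test. The difference was 0.56 ± 0.11 in the Rbbp7 knockdown (adjusted p = 0.168), with a 95% interval of 0.31 to 0.82, and −0.55 ± 0.11 in the double knockdown (adjusted p = 0.0572), with an interval of −0.81 to −0.30. These comparisons share the control libraries. In the Rbbp4 knockdown Nanog differed from the control by −0.048 ± 0.11 (adjusted p = 0.981), with an interval of −0.30 to 0.21. Between the single knockdowns, which need no control, the Rbbp7 minus Rbbp4 difference of Nanog was 0.61 ± 0.11 (adjusted p = 0.121), and between the double and the Rbbp4 knockdown it was −0.50 ± 0.11 (adjusted p = 0.243). The interaction, which sets the change after double knockdown against the single changes added up, was −1.07 ± 0.16 (adjusted p = 0.369). It had the second smallest p of all genes in that comparison, which called 1 gene, or 0.00796%. Nanog was singled out for levels that make this value negative, so the rank is not independent support for the pattern.

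Fgf4, the secreted ligand through which NANOG-positive cells instruct their neighbours, was the other member with its highest values in the Rbbp7 knockdown libraries. Its abundance (chromosome 7, 144847367 to 144865243) was 177 and 150 for the control libraries, 152 and 103 for Rbbp4 knockdown, 605 and 385 for Rbbp7 knockdown and 209 and 99.2 for double knockdown. Both Rbbp7 knockdown libraries lay above the other 6, as for Nanog and for 5.86% of tested genes. Unlike for Nanog, the double knockdown libraries lay on either side of the control libraries. The mean was 302.5% of the control after Rbbp7 knockdown and 94.1% of it after double knockdown. The log2 differences were 1.56 ± 0.37 (adjusted p = 0.247) and −0.18 ± 0.37 (adjusted p = 0.855), and the double knockdown lay −1.74 ± 0.37 from the Rbbp7 knockdown (adjusted p = 0.0846). None of these passed. Among the 9 other members, Fgf4 had the smallest p in the comparison of the double with the Rbbp7 knockdown and in that of the single knockdowns (1.94 ± 0.37, adjusted p = 0.130).

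Esrrb, an orphan nuclear receptor that sustains the naive state and is a known target of NANOG, had values above the control after Rbbp7 knockdown, as Nanog did, and values above it after double knockdown too. Its abundance (chromosome 12, 86361117 to 86521628) was 1158 and 1211 for the control libraries, 1334 and 1345 for Rbbp4 knockdown, 1807 and 1954 for Rbbp7 knockdown and 1925 and 1316 for double knockdown. Both control libraries were below the other 6, an order found for 4.89% of tested genes, and the double knockdown libraries lay apart, replicate 1 among the Rbbp7 knockdown values and replicate 2 just under the Rbbp4 knockdown values. The differences from the control were 0.67 ± 0.17 in the Rbbp7 knockdown (adjusted p = 0.252) and 0.43 ± 0.17 after double knockdown (adjusted p = 0.242). From the Rbbp7 to the double knockdown the difference was −0.24 ± 0.17 (adjusted p = 0.566), with an interval of −0.62 to 0.14, which leaves out Nanog's −1.12. It was 0.034 without double knockdown replicate 2, so its sign rests on that library.

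Tfcp2l1, a grainyhead-like factor that acts downstream of LIF and STAT3, had its lowest values in the double knockdown and values near the control after Rbbp7 knockdown. Its abundance (chromosome 1, 118627945 to 118685168) was 17433 and 17473 for the control libraries, 18565 and 18170 for Rbbp4 knockdown, 17327 and 17800 for Rbbp7 knockdown and 16202 and 13252 for double knockdown. Both double knockdown libraries were below the other 6, as for 8.04% of tested genes, with replicate 2 the lower, and both Rbbp4 knockdown libraries were above the other 6, as for 2.9%. The difference from the control was −0.25 ± 0.12 (adjusted p = 0.314) and from the Rbbp7 knockdown −0.26 ± 0.12 (adjusted p = 0.345). In the Rbbp7 knockdown it was 0.0090 ± 0.12 (adjusted p = 0.991), a value whose sign changed under quantile normalization, with an interval of −0.26 to 0.28.

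Pou5f1 and Sox2 encode the partner factors that bind the composite site printed above. Pou5f1 had 13210 and 16243 for the control libraries, 15078 and 16458 for Rbbp4 knockdown, 17835 and 16019 for Rbbp7 knockdown and 15910 and 13735 for double knockdown. The libraries of every group overlapped those of the control, and the highest library was 1.35-fold the lowest, against 2.42-fold for Nanog. From the Rbbp7 to the double knockdown Pou5f1 differed by −0.19 ± 0.14 (adjusted p = 0.565), with an interval of −0.50 to 0.11. Sox2 was low and scattered, at 136 and 375 for the control libraries, 208 and 129 for Rbbp4 knockdown, 61.8 and 205 for Rbbp7 knockdown and 67.5 and 120 for double knockdown. Its highest and lowest libraries were 6.07-fold apart, the control libraries themselves lay far from each other, and the double knockdown was the 1 group wholly below the control. The Sox2 difference there was −1.32 ± 0.62 (adjusted p = 0.317), or −2.05 and −0.59 without control replicates 1 and 2, and −0.91 without double knockdown replicate 1. From the Rbbp7 to the double knockdown it was −0.32 ± 0.62, with an interval of −1.72 to 1.08 that holds both 0 and Nanog's value.

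The Krüppel-like factors, zinc finger proteins that stand in for each other in stem cells, had small or scattered differences. Klf4 had 1157 and 1314 for the control libraries, 1212 and 1494 for Rbbp4 knockdown, 1532 and 1444 for Rbbp7 knockdown and 1331 and 1318 for double knockdown. Its differences were 0.27 ± 0.14 in the Rbbp7 knockdown (adjusted p = 0.581) and −0.17 ± 0.14 from there to the double knockdown (adjusted p = 0.622). Klf2 had 917 and 802 for the control libraries, 828 and 925 for Rbbp4 knockdown, 1074 and 563 for Rbbp7 knockdown and 1419 and 855 for double knockdown. Its replicates were far apart in the last 2 groups, and it was the 1 member with a higher mean in the double than in the Rbbp7 knockdown (0.50 ± 0.31, adjusted p = 0.489).

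Zfp42 and Tdgf1 are markers of the undifferentiated state. Zfp42, the zinc finger gene also called Rex1, had 1141 and 2022 for the control libraries, 1538 and 1546 for Rbbp4 knockdown, 1471 and 1980 for Rbbp7 knockdown and 1369 and 1442 for double knockdown. The control libraries spanned the values of all the others, and the double knockdown lay −0.28 ± 0.24 from the Rbbp7 knockdown (adjusted p = 0.646). Tdgf1 encodes Cripto, the co-receptor of the ligand Nodal, and had 824 and 623 for the control libraries, 455 and 533 for Rbbp4 knockdown, 933 and 869 for Rbbp7 knockdown and 960 and 502 for double knockdown. Its lowest group was the Rbbp4 knockdown (−0.54 ± 0.27 against the control, adjusted p = 0.853), and the Rbbp7 minus Rbbp4 difference was 0.87 ± 0.27 (adjusted p = 0.344). Tdgf1 shares 512 bases at 98.8% identity with a processed pseudogene, Tdgf1-ps1, listed at a mean of 21.5, so its level is uncertain to that extent. Nanog and Zfp42 each share a shorter stretch (245 and 266 bases) with a pseudogene not used here. The exons of Pou5f1 overlap those of an antisense gene over 317 bases, and reads from the 2 cannot be told apart without strand.

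**Figure D2:**
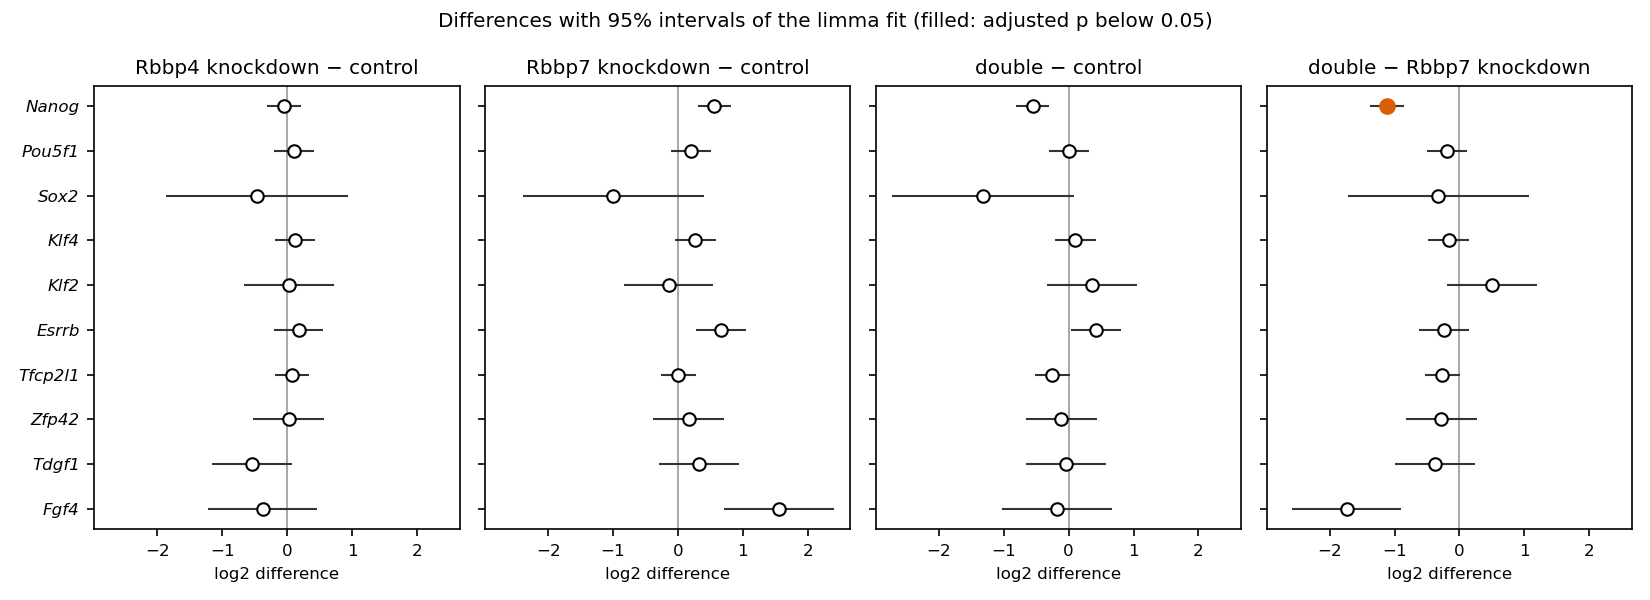
Log2 differences (x axes) of the 10 genes in 4 comparisons, with 95% intervals of the limma fit as lines; filled points have an adjusted p below 0.05. Nanog in the double against the Rbbp7 knockdown (−1.12) is the filled point, and Fgf4 (−1.74) is the other gene there whose interval leaves out 0.

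Over the 10 members, 1 was called in the comparison of the double with the Rbbp7 knockdown, and 0 were called in each of the other 6 comparisons by limma. The share of all tested genes called there was 0.0239% in the Rbbp4 and in the Rbbp7 knockdown against the control, 1.15% in the double knockdown against the control, 0.0159% between the double and the Rbbp4 knockdown, 0.0796% between the single knockdowns, and 0.00796% in the interaction. An unadjusted p below 0.05 was reached against the control by 0 members in the Rbbp4 knockdown (5.86% of all tested genes), 3 in the Rbbp7 knockdown (Nanog, Esrrb and Fgf4; 9.55%) and 2 in the double knockdown (Nanog and Esrrb; 17.3%). It was reached by 2 between double and Rbbp7 knockdown (Nanog and Fgf4; 15%), 2 between double and Rbbp4 knockdown (Nanog and Tfcp2l1; 9.57%), 4 between the single knockdowns (Nanog, Esrrb, Tdgf1 and Fgf4; 9.3%) and 2 in the interaction (Nanog and Fgf4; 6.49%). The 2 of 10 in the double knockdown and between double and Rbbp7 knockdown lie near those shares. From the Rbbp7 to the double knockdown 9 of 10 members were negative and 1 was positive (48.2% of all tested genes were positive). The median was −0.27, against −0.014 over all tested genes. The libraries of 6 members did not overlap, all 6 lower in the double knockdown, as for 23.2% of all tested genes. In the Rbbp7 knockdown against the control 8 of 10 were positive (51.4% of all genes). The median was 0.24 against 0.0095 over all genes, and 5 members lay wholly above the control, as did 19.9% of all genes. These comparisons share the Rbbp7 knockdown libraries, so high values there move both tallies. In the double knockdown against the control 4 were positive (49.9% of all genes) and 6 negative, with a median of −0.078 against −0.00056. There Nanog, Tfcp2l1 and Sox2 lay wholly below the control (22.2% of all genes) and Esrrb and Klf4 wholly above it (21.9%). Between the double and the Rbbp4 knockdown 4 members lay wholly lower (Nanog, Sox2, Tfcp2l1 and Zfp42; 21.5% of all genes) and 0 wholly higher (20.9%). The Rbbp7 knockdown lay wholly above the Rbbp4 knockdown for 4 members (Nanog, Esrrb, Tdgf1 and Fgf4; 22.7%) and wholly below it for Tfcp2l1 (22.9%). The Rbbp4 knockdown lay wholly above the control for Esrrb and Tfcp2l1 (18%) and wholly below it for Tdgf1 (17.4%). The reverse orders held 0 members: below the control after Rbbp7 knockdown (19.7% of all genes), above the Rbbp7 knockdown after double knockdown (23.1%), both libraries above the other 6 in the control (5.2%) or the double knockdown (8.87%), and both below the other 6 in the Rbbp4 (2.56%) or the Rbbp7 knockdown (6.22%). Summed, the 10 genes had 42851 and 46534 in the control libraries and 45915 and 46754 after Rbbp4 knockdown. They had 51739 and 51376 after Rbbp7 knockdown, and 43584 and 37331 after double knockdown. Nanog, singled out for being higher after Rbbp7 and lower after double knockdown, is among the 10 in all of these tallies and sums. Its own means were 6510 in the control, 9625 after Rbbp7 knockdown and 4442 after double knockdown.

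Per kilobase of merged exons, so that genes can be set beside each other, Pou5f1 was the highest member in the control, with 6551 ± 954 (SD, n = 2) units of normalized abundance per kilobase. The sources used here do not say whether the deposited values were already divided by gene length; if they were, this division repeats the correction. Undivided, Tfcp2l1 (17453) stood above Pou5f1 (14727) and Nanog (6510) in the control. Nanog followed at 2904 ± 118 and Tfcp2l1 at 1849 ± 2.98. Zfp42 (841 ± 331), Klf2 (465 ± 43.9), Klf4 (405 ± 36.4), Tdgf1 (276 ± 54.4), Esrrb (196 ± 6.18), Sox2 (124 ± 82.2) and Fgf4 (51.2 ± 5.86) came after. The libraries of neighbours in this order did not overlap in the control, but Klf2 and Klf4, Esrrb and Sox2, and Sox2 and Fgf4 lay within the sum of their SDs of each other. Nanog per kilobase was 4293 ± 335 in the Rbbp7 knockdown and 1981 ± 158 after double knockdown. In the double knockdown it lay 1 place above Tfcp2l1 (1560 ± 221), as in the control. Fgf4 stayed the lowest or next to the lowest member in every group, at 155 ± 48.6 in the Rbbp7 knockdown, where it passed Sox2 (65.0 ± 49.4).

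Likeness to Nanog was measured for every tested gene as the root mean square (RMS) difference between its profile and Nanog's over the 8 libraries, each profile being log2(abundance + 1) minus the gene's own mean. The members were not among the nearest genes: Tfcp2l1 was nearest, at 0.341 and rank 1275 of 12564, followed by Pou5f1 (0.370, rank 2205), Klf4 (0.373, rank 2306) and Zfp42 (0.381, rank 2627). The median over all other genes was 0.479, and Nanog's own standard deviation over the libraries was 0.428. A gene that did not vary would score somewhat below that standard deviation, which has a smaller divisor than the RMS. Tfcp2l1, Pou5f1, Klf4 and Zfp42 had standard deviations of 0.155, 0.142, 0.142 and 0.271. Their low scores can therefore come from varying little, and their order is not an order of shared pattern. Esrrb (0.427, rank 4484) lay somewhat nearer than the median, and Tdgf1 (0.478, rank 6249) lay at about the median. Fgf4 (0.627, rank 9114), with swings larger than Nanog's, lay beyond it, as did Klf2 (0.677, rank 9695) and Sox2 (0.822, rank 10771).

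The 10 tested genes nearest to Nanog were Fez2 (0.129), Gm15443 (0.133), Jun (0.149), Esco1 (0.170), Actr8 (0.172), Slc25a23 (0.186), Erlec1 (0.187), Pramel6 (0.188), Rpusd3 (0.189) and Flna (0.189), a description over 8 libraries with no test. These genes were picked for a profile like Nanog's, so their order of groups follows from the choice. Jun, the AP-1 transcription factor, had 728 and 798 for the control libraries, 731 and 634 for Rbbp4 knockdown, 1109 and 1050 for Rbbp7 knockdown and 595 and 590 for double knockdown. Its log2 difference between double and Rbbp7 knockdown was −0.86. Pramel6, a gene of the Prame-like family known from naive cells, had 7961 and 7694 for the control libraries, 8510 and 7876 for Rbbp4 knockdown, 10491 and 9545 for Rbbp7 knockdown and 5983 and 6856 for double knockdown (−0.64). The same difference was −0.92 for Fez2, −0.78 for Esco1, an acetyltransferase of cohesin, −0.69 for Actr8, a subunit of the INO80 chromatin remodeller, and −0.67 for Flna, the actin cross-linker filamin A. Gm15443 shares near-identical stretches with 4 other genes and Esco1 with a pseudogene, and Jun and Rpusd3 each overlap a transcript on the opposite strand, so their levels are uncertain.

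**Figure D3:**
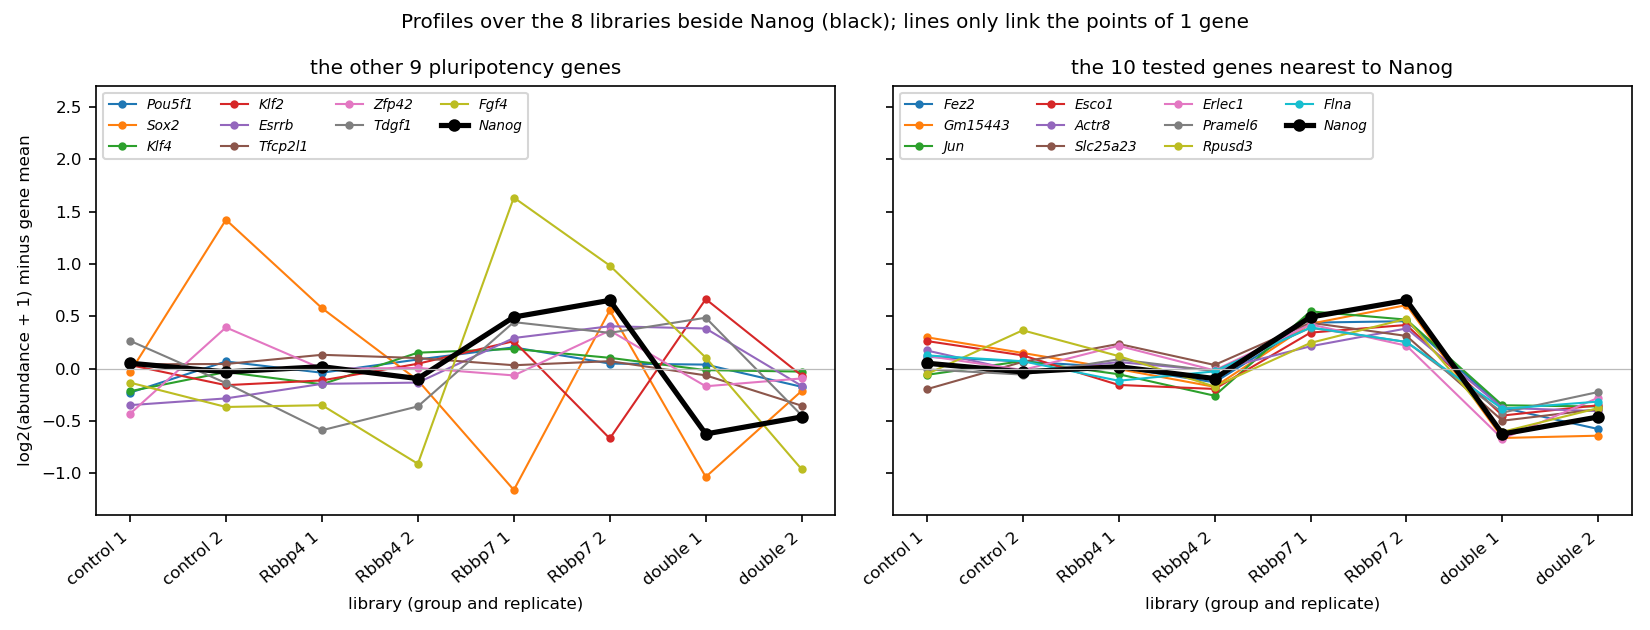
Log2(abundance + 1) minus the gene's mean (y axes) in the 8 libraries (x axes; replicates have no order, and lines only link the points of a gene), for the other 9 pluripotency genes (left) and the 10 genes nearest to Nanog (right), with Nanog in black. The genes on the right were chosen for likeness to Nanog's profile, so that they follow it is given by the choice; on the left Fgf4 has the highest values in the Rbbp7 knockdown.

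Of 32 other genes of the naive network, 28 were tested, of which 1 rose after double knockdown (0.645% of all genes rose) and 0 fell. That gene was Tet1, an enzyme that oxidises methylated cytosine, which had 1400 and 1272 for the control libraries, 1910 and 1826 for Rbbp4 knockdown, 1581 and 1574 for Rbbp7 knockdown and 2491 and 2022 for double knockdown. The difference was 0.75 ± 0.13 (adjusted p = 0.0351), and both double knockdown libraries were above the other 6. The call held in 7 of 18 alternatives and ended without any 1 of the 8 libraries (adjusted p up to 0.198). In the other 6 comparisons limma called 0 of the 28. At an unadjusted p below 0.05 there were 11 in the double knockdown against the control (17.3% of all genes), 8 between double and Rbbp7 knockdown (15%), 4 in each single knockdown against the control (5.86% for Rbbp4 and 9.55% for Rbbp7), 4 in the interaction (6.49%), and 2 in each of the other two. The list's median was −0.0039 in the Rbbp7 knockdown, −0.016 in the double knockdown and −0.091 between them. Dppa3, a maternal factor that protects methylation, had −0.44 ± 0.10 in the double knockdown (adjusted p = 0.0860), and L1td1, an RNA-binding protein, 0.54 ± 0.13 between double and Rbbp7 knockdown (adjusted p = 0.110).

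In the signalling lists limma called 0 genes in any comparison. At an unadjusted p below 0.05, the largest count for LIF and STAT3 was 5 of 9, in the Rbbp7 knockdown against the control (9.55% of all genes), and for FGF and ERK 5 of 22, in the double knockdown against the control (17.3%). For Nodal and Activin it was 2 of 12, in the double knockdown against the control (17.3%) and between the single knockdowns (9.3%). For Wnt it was 2 of 8, between double and Rbbp4 knockdown (9.57%), and for the formative and primed states 2 of 5, between double and Rbbp7 knockdown (15%). Of 9 tested genes of the LIF and STAT3 pathway, Jak2, a Janus kinase like Jak1, had the smallest p. It had 263 and 226 for the control libraries, 259 and 312 for Rbbp4 knockdown, 134 and 138 for Rbbp7 knockdown and 256 and 252 for double knockdown. Its difference from the control was −0.84 ± 0.20 after Rbbp7 knockdown (adjusted p = 0.235), and from the Rbbp7 to the double knockdown it was 0.89 ± 0.20 (adjusted p = 0.0902), both opposite in sign to Nanog's. Over the 9 tested genes the medians in these comparisons were 0.32 and 0.19, each with 5 of 9 positive, so Jak2 does not stand for the list. Gbx2, a STAT3 target, had 1.21 ± 0.36 in the double knockdown (adjusted p = 0.138) and Jak1 −0.43 ± 0.13 (adjusted p = 0.149). Among 22 tested genes of FGF and ERK signalling, the receptor gene Fgfr2 had 0.51 ± 0.15 between double and Rbbp7 knockdown (adjusted p = 0.157), and the ERK phosphatase gene Dusp4, which ERK itself induces, had −0.65 ± 0.17 in the double knockdown (adjusted p = 0.106). Fgfr4 had −0.88 ± 0.33 there (adjusted p = 0.220). The 12 tested genes of Nodal and Activin signalling, the 8 of the Wnt pathway and the 5 of the formative and primed states, into which naive cells pass, had medians between −0.15 and 0.24 from the Rbbp7 to the double knockdown. Nodal itself was at or below a mean of 27.2 in every group (1.73 ± 0.73 in the double knockdown, adjusted p = 0.266), and the formative factor Pou3f1 had 1.15 ± 0.44 from the Rbbp7 to the double knockdown (adjusted p = 0.269), or 1.79 and 0.505 without Rbbp7 knockdown replicates 1 and 2.

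Markers of the other lineages were read in the same libraries. In a bulk library, fewer cells of a type and less RNA per cell cannot be told apart. Of 15 primitive endoderm markers, 12 were tested and 1 rose from the Rbbp7 to the double knockdown (0.239% of all genes rose), with a median of 0.43 and 6 of 12 at an unadjusted p below 0.05 (15% of all genes). It was Cubn, an endocytic receptor, with 303 and 375 after Rbbp7 knockdown and 755 and 804 after double knockdown (1.21 ± 0.15, adjusted p = 0.0171), against 641 and 676 in the control. The call ended without either library of these groups or without Rbbp4 knockdown replicate 2 (adjusted p up to 0.188 over all alternatives). Cubn was also 1 of 8 genes (0.0637%) that were lower in the Rbbp7 than in the Rbbp4 knockdown (−1.49 ± 0.15, adjusted p = 0.00823). The list summed to 16071 and 16860 in the control, 14838 and 17311 after Rbbp7 knockdown and 16676 and 17549 after double knockdown, so these groups overlapped. After Rbbp4 knockdown it summed to 17984 and 18222, both above every other library. Gata6, the factor that opposes NANOG, lay between 5592 and 6816 in all libraries.

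Of 21 trophectoderm markers, 20 were tested, and in the comparison of the double with the Rbbp7 knockdown, where Nanog fell, limma called 0, with 8 at an unadjusted p below 0.05 (15% of all genes) and a median of 0.26. Against the control 1 (Fabp3) fell in the Rbbp7 knockdown (0.0239% of all genes fell). There 17 of 20 were negative, with a median of −0.83 against 0.0095 over all genes, and 11 had an unadjusted p below 0.05 (9.55% of all genes). The Fabp3 call ended, among other settings, without the variance trend and with only the compared libraries. In the double knockdown 5 fell (Atp1b1, Fabp3, Id2, Krt18 and Plet1; 0.501% of all genes) and 1 rose (Krt19; 0.645%). There 16 of 20 were negative, with a median of −0.23 against −0.00056 over all genes, and 11 had an unadjusted p below 0.05 (17.3% of all genes). Krt19 was low in the control libraries (8.27 and 26.1, against 141 and 205 after double knockdown). The Krt19 and Fabp3 calls against the control there ended, among other settings, with group variance weights, without the variance trend and with only the compared libraries. Of the 5, Plet1 (−1.83) held its call in 16 of 18 alternatives and Krt18 (−1.08) in 6. Between the single knockdowns Fabp3 was called lower in the Rbbp7 knockdown (−1.08 ± 0.15, adjusted p = 0.0456), as were 0.0637% of all genes. In that comparison 17 of 20 markers were negative. The trophectoderm list summed to 33513 and 40910 in the control and 34649 and 33467 after Rbbp4 knockdown. It summed to 25048 and 25127 after Rbbp7 knockdown and 26887 and 25177 after double knockdown. The sum was below the control libraries in both groups, the one with the highest Nanog and the one with the lowest, while the median difference was larger in the former, and 0 of the 21 genes were at 0 in all libraries. The part of these markers in Nanog's difference from the control was not tested. Of the granulosa markers Foxl2 had 101 and 74.4 in the double knockdown against 29.3 and 12.0 in the control, which did not pass (adjusted p = 0.0892). Inha stood at 0 in each control library, with its highest value, 3.71, in double knockdown replicate 2. The mean of Vim was 46.9 in the double knockdown and 49.5 in the control. The granulosa list summed to 186 and 119 in the double knockdown, against 39.5 to 115 in the other libraries. The part of these markers was not tested either.

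**Figure D4:**
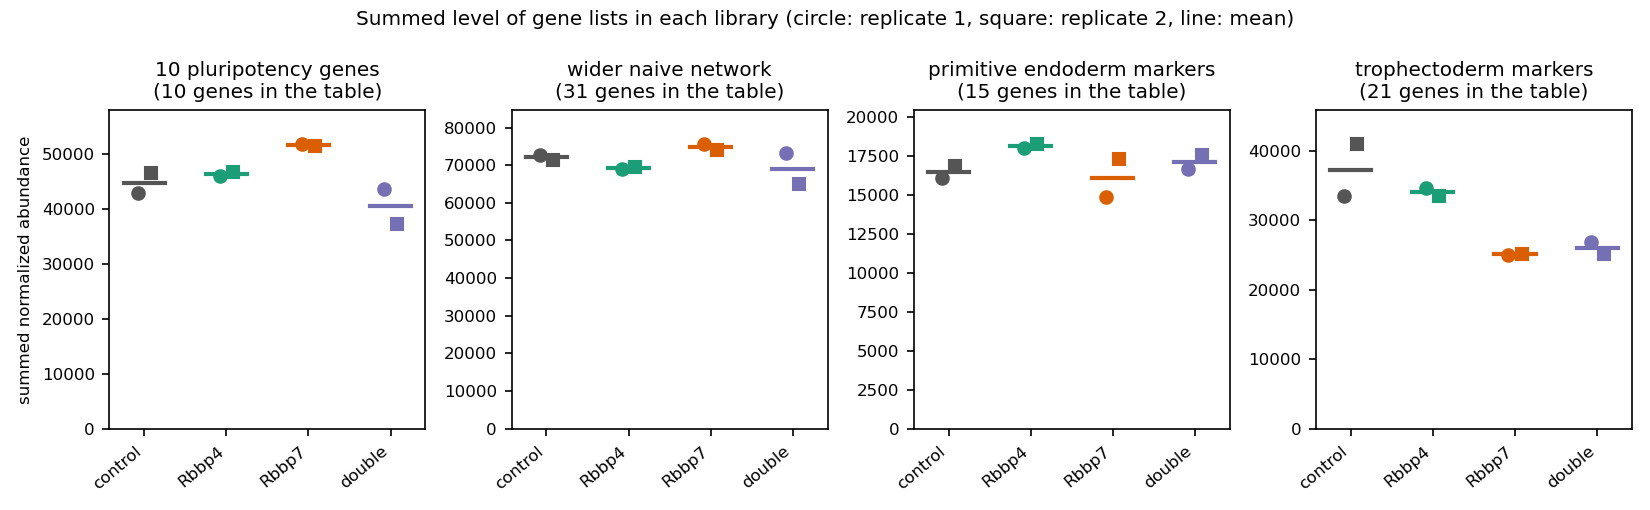
Summed normalized abundance (y axes, linear, from 0) of 4 gene lists in the 4 groups (x axes), with replicates 1 and 2 as circles and squares and group means as lines. Trophectoderm markers are low in both the Rbbp7 and the double knockdown (25048 to 26887), whereas the sum of the 10 pluripotency genes, which Pou5f1, Tfcp2l1 and Nanog dominate, is highest in the Rbbp7 knockdown (51376 and 51739).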

How the data were processed

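Per the labels' protocols, embryo RNA was captured on oligo(dT) beads and made into PCR-amplified libraries. The submitters' processing notes name Trimmomatic, HISAT2, featureCounts, DESeq2 and build GRCm38; versions, settings and strand use: not given in the sources used here. Each deposited value is a signal, a gene's abundance that the authors normalized, as the deposited table's own name says. Among values below 30, 28.0% to 61.3% per library came within 0.05 of whole multiples of a common step, so reads were not recovered, depth is unknown and no count model was fitted. Of 19058 genes 18942 matched a symbol, and 0 columns lay outside the 8 samples.

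With limma 3.58.1 in R 4.3.3, log2(value + 1) was fitted with 1 mean per group over all 8 libraries and a variance trend (4 residual and 5.18 prior degrees of freedom), after leaving out 6493 genes whose mean was below 10. The 7 comparisons were tested two-sided with Benjamini-Hochberg adjustment within each. The script was tested on simulated data. Copies are other genes sharing at least 200 bases at 95% identity (blastn, GENCODE M21). The members and lists were chosen with earlier results of these data known. Named list genes are those called in any comparison and otherwise at most 3 per list with the smallest p after Rbbp7 knockdown, after double knockdown or between these. Alternatives changed the pseudocount, filter, scaling, variance model, libraries fitted and replicate block.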

Additional observations from a re-analysis of the deposited data

How the results depend on the processing

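Nanog's difference between the double and the Rbbp7 knockdown kept its direction in all 18 alternatives (−1.20 to −1.03) and its call in 15, with adjusted p between 0.00775 and 0.107. It was −1.12 and not called with only the compared libraries (adjusted p = 0.107) or without the variance trend (adjusted p = 0.0773); these 2 settings leave 0 members called. Without 1 library in turn it ran from −1.20 to −1.03, and the count of members called was 0 or 1. A filter at a mean of 50 called Nanog in the double knockdown against the control (−0.55, adjusted p = 0.0473), so 1 member was called there. Group variance weights called Nanog between the single knockdowns (0.61, adjusted p = 0.0366) and 2 members in all, with Fgf4. The titles number replicates alike, but deviations of same-numbered libraries correlated at only −0.022 to 0.051 over all tested genes. No broad shared shift was seen, but a batch acting on a small part of the genes could be missed this way. The replicate block called Fgf4 beside Nanog between the double and the Rbbp7 knockdown (−1.74, adjusted p = 0.0408; 2 members) and Fgf4 alone between the single knockdowns (1.94, adjusted p = 0.0449; 1 member). The cause of these changes was not tested.

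The number of all genes called moved more: between the double and the Rbbp7 knockdown it was 45, but 78 with a filter at 50, 5 without the trend, 1 with only the compared libraries, 30 with the block, and 5 to 42 without 1 library: 12 and 5 for Rbbp7 knockdown replicates 1 and 2 left out, 15 and 28 for those of the double knockdown, and 23 and 21 for those of the Rbbp4 knockdown. In the double knockdown against the control it was 144, but 10, 2 and 38 without the trend, with only the compared libraries and with group weights, and 27 to 99 without 1 library. In the Rbbp7 knockdown against the control it was 3, but 6 with a filter at 50, 7 with a pseudocount of 10, and 1 to 38 without 1 library, the 38 without control replicate 2. In the Rbbp4 knockdown 3 became 2 to 36, also without control replicate 2, between double and Rbbp4 knockdown 2 became 2 to 13, between the single knockdowns 10 became 6 to 15 without 1 library, 65 with group weights and 18 with only the compared libraries, and in the interaction, which needs all 4 groups, 1 became 0 to 21.

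Small differences changed sign under scaling: Tdgf1 (0.0013 under total signal scaling) and Pou5f1 (−0.0062 under quantile normalization) in the double knockdown against the control, Tfcp2l1 in the Rbbp7 knockdown (−0.017, quantile), and Klf4 between double and Rbbp4 knockdown (0.011, quantile). Without 1 library in turn, signs changed within these ranges. Rbbp4 knockdown: Nanog −0.10 to 0.0085, Pou5f1 −0.044 to 0.25, Sox2 −1.19 to 0.27, Klf4 −0.025 to 0.28, Klf2 −0.067 to 0.12 and Zfp42 −0.39 to 0.43. Rbbp7 knockdown: Klf2 −0.61 to 0.32, Tfcp2l1 −0.010 to 0.028 and Zfp42 −0.24 to 0.58. Double knockdown: Pou5f1 −0.14 to 0.16, Klf2 −0.0042 to 0.73, Zfp42 −0.52 to 0.30, Tdgf1 −0.51 to 0.42 and Fgf4 −0.71 to 0.36. Double minus Rbbp7 knockdown: Sox2 −1.18 to 0.54, Esrrb −0.51 to 0.034 and Tdgf1 −0.84 to 0.093. Double minus Rbbp4 knockdown: Pou5f1 −0.20 to 0.014, Klf4 −0.17 to 0.13, Klf2 −0.033 to 0.70, Esrrb −0.026 to 0.52 and Fgf4 −0.33 to 0.73. Single knockdowns: Sox2 −1.39 to 0.32, Klf4 −0.0065 to 0.30, Klf2 −0.64 to 0.30 and Zfp42 −0.068 to 0.36. Interaction: Sox2 −0.72 to 0.996, Zfp42 −0.71 to 0.11 and Tdgf1 −0.30 to 0.63.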
